A study of Mus musculus with 4 samples.

Results

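The 10 genes described here belong to the JAK-STAT pathway and its feedback, and were measured in mouse macrophages of 2 phenotypes, with and without interleukin-1α (IL-1α). They were listed by name, with earlier results of these data known, and no value threshold was used: Socs1, Socs2, Socs3, Cish, Stat3, Stat6, Jak2, Pim1, Il4ra and Il13ra1. All 10 were measured, by 12 of the 21789 probe sets that carry a single gene, among 19938 genes in all. The study's comparison is of the IL-1α response between phenotypes. Marrow of C57BL/6N mice was differentiated into macrophages with M-CSF at 10 ng/mL, and the cells were collected on day 9. There were 4 groups with 1 array each: IL-1α-treated M2, vehicle M2, IL-1α-treated M1, and vehicle M1. M2 cells had been polarised for 48 h with 20 ng/mL interleukin-4 (IL-4), and M1 cells for 48 h with 10 ng/mL interferon-γ. IL-1α (10 ng/mL) or vehicle was given for 24 h. The labels do not say whether the polarising cytokine was still present during that time, how many animals gave the marrow, or how old they were. No value has a replicate, so single differences carry no standard deviation and no p-value.

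Cytokine receptors of this class have no kinase of their own. A bound cytokine brings together receptor chains that carry Janus kinases (JAKs), which phosphorylate STAT transcription factors, and the STATs then enter the nucleus and bind DNA. IL-4 signals through the chain Il4ra, paired with the common γ chain or with Il13ra1, mainly to Stat6. Interferon-γ signals through Jak1 and Jak2. SOCS proteins, among them Cish, are induced by STATs and shut the pathway down again at the receptor or the kinase. IL-1α itself does not use a JAK-coupled receptor but signals through MyD88 to NF-κB.

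Levels are log2 signals per gene after RMA, the authors' background correction, normalisation and summary of each probe set, and differences are in log2 units. A floor of 7.62, the median over every gene and array, marks levels not shown to be above background. Arrays of the M2 pair correlated at r = 0.9958 over all rows, those of the M1 pair at 0.9969, and arrays of different phenotypes at 0.9617 to 0.9658. All 7 macrophage markers lay above the floor on every array, at 9.99 or more. T cell, B cell, NK cell and mast cell markers lay under the floor throughout, at 7.46 or less. Of 5 neutrophil markers, 2 reached the floor on at least 1 array, as did 2 of 4 dendritic cell, 3 of 5 fibroblast and 2 of 4 endothelial markers. The fibroblast markers Col1a1, Col1a2 and Col3a1 and the endothelial marker Pecam1 lay above it on all 4 arrays, at 7.87 to 8.92. The 4 M2 markers (Arg1, Retnla, Chil3, Mrc1) were at 12.41 to 13.27 in IL-1α-treated M2 and 12.48 to 13.30 in vehicle M2, against 4.998 to 7.91 in IL-1α-treated M1 and 4.91 to 7.997 in vehicle M1.

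Promoters of 3 genes are shown because their genes take opposite sides below. Each sequence runs from 250 bases before to 50 bases after the annotated start in RefSeq (GRCm38.p6), 5′ to 3′ on the gene's strand. Capitals mark STAT-type motifs (TTCNNNGAA, or TTC and GAA with 4 bases between) or an interferon-type motif (GAAA repeated with 2 bases between). Both strands were searched, and the STAT-type motifs read the same on both.
Cish (chr9:107296409-107296708, plus strand): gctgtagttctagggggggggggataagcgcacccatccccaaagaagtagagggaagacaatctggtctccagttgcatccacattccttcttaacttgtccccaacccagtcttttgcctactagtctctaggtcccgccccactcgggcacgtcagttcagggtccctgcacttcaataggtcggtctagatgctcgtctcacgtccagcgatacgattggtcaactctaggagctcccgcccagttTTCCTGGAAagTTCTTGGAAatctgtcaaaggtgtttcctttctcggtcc
Socs3 (chr11:117969317-117969616, minus strand): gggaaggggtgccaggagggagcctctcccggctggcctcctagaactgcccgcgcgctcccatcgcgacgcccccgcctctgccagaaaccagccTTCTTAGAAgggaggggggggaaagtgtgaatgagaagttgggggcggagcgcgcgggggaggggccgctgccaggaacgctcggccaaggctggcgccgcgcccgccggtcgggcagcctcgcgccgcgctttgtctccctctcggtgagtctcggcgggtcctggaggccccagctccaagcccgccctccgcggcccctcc
Socs1 (chr16:10785487-10785786, minus strand): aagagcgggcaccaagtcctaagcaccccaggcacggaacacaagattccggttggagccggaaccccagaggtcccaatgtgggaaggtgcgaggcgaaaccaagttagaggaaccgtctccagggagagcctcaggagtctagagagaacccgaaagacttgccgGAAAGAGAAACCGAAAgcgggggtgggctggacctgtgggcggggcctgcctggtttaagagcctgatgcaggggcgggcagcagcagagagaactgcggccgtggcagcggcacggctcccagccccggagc
Cish held 2 copies of TTCNNNGAA, at bases 1 to 9 and 12 to 20 after the start. Socs3 held 1 copy, with its first base 154 and its last 146 bases before the start. Socs1 held no STAT-type motif in this window but 2 overlapping copies of the interferon-type motif, which together spanned 83 to 68 bases before the start. A window was found for 9 of the 10 genes, 10 windows in all, and none of the other 6 genes with a window held any of the 3 motifs. Socs2 was the gene not searched. Among 32851 windows of the same length, 8.30% held TTCNNNGAA and 0.457% held it at least 2 times, 6.95% held the STAT-type motif with the wider spacing, and 3.44% held the interferon-type motif. A match describes letters and does not show that a factor binds there.

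The feedback genes differed between phenotypes in opposite directions, and Il4ra, Il13ra1 and Stat3 were lower in M2. In these bulk samples, fewer cells of a type and less RNA per cell cannot be told apart. Between the vehicle arrays, Cish and Socs2, 2 of the 10 genes, exceeded 2-fold upward in M2, as did 7.03% of 10489 genes. Socs1, Socs3, Stat3, Il4ra and Il13ra1, 5 of the 10, exceeded it downward, as did 6.83%. Jak2, Stat6 and Pim1 differed by less than 2-fold. The median of the 10 differences was -0.72, against 0.01 for all those genes. For the IL-1α arrays, the counts were 2 higher and 4 lower, with 8.15% and 6.06% of 10479 genes as background. The gene that dropped out was Il4ra, which stood just short of 2-fold with IL-1α (-0.95) and just past it with vehicle (-1.05).

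**Figure D1:**
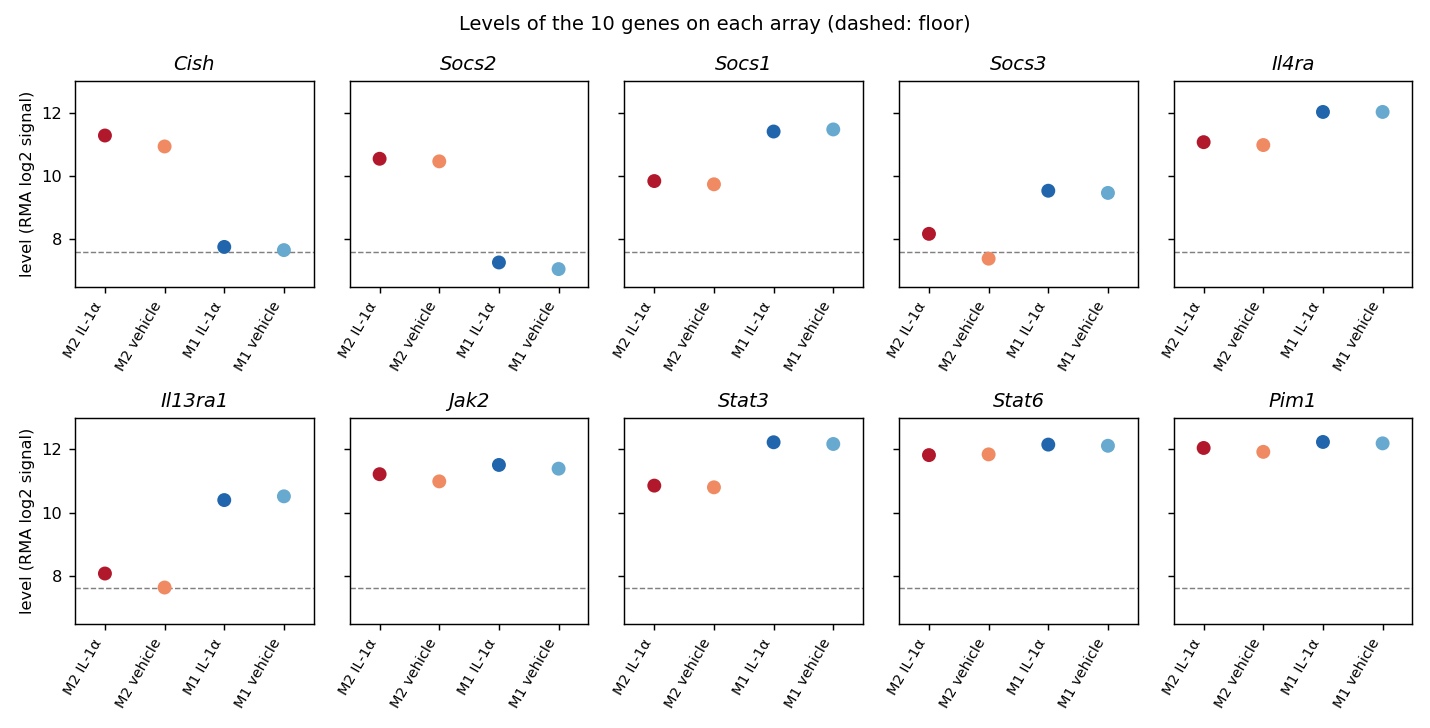
Level of each gene (RMA log2 signal) on the M2 IL-1α, M2 vehicle, M1 IL-1α and M1 vehicle arrays, 1 point per array, with the floor of 7.62 dashed. Cish and Socs2 are higher on both M2 arrays, the other 8 genes are lower there, and Il13ra1 reads 7.64, at the floor, in vehicle M2.

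A limma additive model used all 4 arrays and set the shared M2 minus M1 effect against the departure from additivity. With Benjamini-Hochberg adjustment over 10625 genes at a threshold of 0.05, it called 2 of the 10 genes higher in M2 (background 33.2%) and 8 lower (background 29.3%), so 10 of 10 against 62.5% of all genes, and 65.5% of all genes had an unadjusted limma p under 0.05. Most genes at the floor were therefore called. The model has 1 residual degree of freedom per gene plus 10.05 borrowed across genes, and the labels name no separate cultures or animals. Its p-values do not measure spread between cultures.

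Among the inhibitors, Cish binds cytokine receptors of the STAT5-activating kind and carries the pair of STAT-type motifs printed above. Cish read 11.28 in IL-1α-treated M2 and 10.93 in vehicle M2, against 7.76 in IL-1α-treated M1 and 7.66 in vehicle M1. Both M1 values sat close to the floor, so the size of the difference is uncertain. It was 3.52 with IL-1α (11.4-fold) and 3.27 with vehicle (9.66-fold), and with vehicle it ranked 59 from the highest of 10489 genes. The limma effect was 3.39 ± 0.09 (SE), with limma adjusted p = 2.69e-11.

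Socs2, a SOCS protein best known for restraining growth hormone signalling, followed the same side. Its average over 2 probe sets was 10.55 in IL-1α-treated M2 and 10.46 in vehicle M2, against 7.27 in IL-1α-treated M1 and 7.06 in vehicle M1. Both M1 averages lay under the floor, so Socs2 entered the comparison only through M2, where it is high, and the size is uncertain. The difference was 3.27 with IL-1α and 3.40 with vehicle, and the limma effect was 3.34 ± 0.09 (SE, limma adjusted p = 3.33e-11). The probe sets agreed on the direction but not on the size, as described further on.

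Socs1 and Socs3 differed the other way. Socs1 inhibits JAK kinase activity directly and is a strong brake on interferon-γ signalling. Socs1 read 9.84 in IL-1α-treated M2 and 9.74 in vehicle M2, against 11.41 in IL-1α-treated M1 and 11.47 in vehicle M1. All 4 values lay well above the floor, so this difference does not rest on a dim array. It was -1.56 with IL-1α (2.96-fold lower in M2) and -1.73 with vehicle (3.32-fold), with a limma effect of -1.65 ± 0.07 (SE, limma adjusted p = 1.99e-09).

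Socs3 also inhibits JAKs, and is the main brake on receptors that contain the gp130 chain. Its average was 8.18 in IL-1α-treated M2 and 7.39 in vehicle M2, against 9.54 in IL-1α-treated M1 and 9.47 in vehicle M1. The M2 vehicle array lay under the floor and the M2 IL-1α array above it, and both M2 values lay below both M1 values. The difference was -1.36 with IL-1α (2.57-fold lower in M2) and -2.08 with vehicle (4.21-fold). The limma effect was -1.72 ± 0.14 (SE, limma adjusted p = 6.06e-07), and its SE was the widest among the 10 genes, whose range was 0.05 to 0.14.

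**Figure D2:**
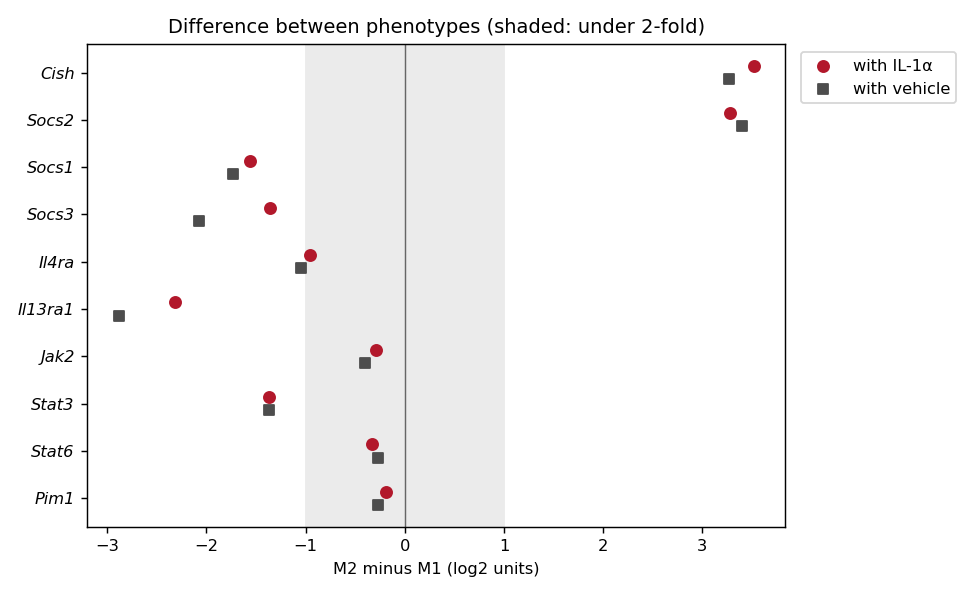
Difference M2 minus M1 (log2 units) for each gene between the IL-1α arrays (circles) and between the vehicle arrays (squares), 1 array per group, with differences under 2-fold shaded. Cish and Socs2 lie above 3 in both, Il13ra1 lies at -2.32 with IL-1α and -2.88 with vehicle, and Stat3 lies at -1.37 in both.

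The receptor chains Il4ra and Il13ra1 were both lower in the cells that had been given IL-4. Il13ra1 can pair with Il4ra in a receptor for IL-4. Il13ra1 read 8.08 in IL-1α-treated M2 and 7.64 in vehicle M2, against 10.40 in IL-1α-treated M1 and 10.52 in vehicle M1. The M2 vehicle value was barely above the floor. The difference was -2.32 with IL-1α (4.99-fold lower in M2). It was -2.88 with vehicle (7.36-fold), rank 133 from the lowest of 10489 genes, and the limma effect was -2.60 ± 0.12 (SE, limma adjusted p = 3.32e-09).

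Il4ra, the chain that binds IL-4 itself, read 11.07 in IL-1α-treated M2 and 10.98 in vehicle M2, against 12.02 on both M1 arrays. The limma effect was -0.9995 ± 0.06 (SE, limma adjusted p = 3.16e-08). The common γ chain and Jak3 were not analysed here.

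Of the signal carriers, Stat3 differed and Stat6 barely did. Stat3, the factor downstream of gp130 and of the IL-10 receptor, read 10.86 in IL-1α-treated M2 and 10.80 in vehicle M2, against 12.23 in IL-1α-treated M1 and 12.17 in vehicle M1. Its difference was -1.37 under each treatment, 2.58-fold lower in M2, with a limma effect of -1.37 ± 0.06 (SE, limma adjusted p = 1.52e-09). Stat6, the factor that IL-4 activates, read 11.82 in IL-1α-treated M2 and 11.84 in vehicle M2, against 12.15 in IL-1α-treated M1 and 12.11 in vehicle M1. This was a difference of 1.26-fold with IL-1α and 1.21-fold with vehicle, and limma called it lower in M2 (-0.30 ± 0.05 SE, limma adjusted p = 3.93e-04). These are transcript levels, and STAT activity depends on phosphorylation, which arrays do not measure.

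Both kinases differed by less than 2-fold. Jak2, which serves the interferon-γ and GM-CSF receptors, read 11.22 in IL-1α-treated M2 and 10.99 in vehicle M2, against 11.51 in IL-1α-treated M1 and 11.39 in vehicle M1. Its limma effect was -0.35 ± 0.06 (SE, limma adjusted p = 4.04e-04). Pim1, a survival kinase whose gene is a STAT target in many cell types, read 12.05 in IL-1α-treated M2 and 11.92 in vehicle M2, against 12.24 in IL-1α-treated M1 and 12.19 in vehicle M1. Its effect was the smallest of the 10, at -0.23 ± 0.05 (SE, limma adjusted p = 0.00253). Of all 10489 genes, 53.8% lay at least as far from 0 as Pim1 between the vehicle arrays, 53.5% as Stat6 and 39.7% as Jak2.

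The probe sets of Socs2 and Socs3 did not measure the same difference. For Socs2, probe set 10394674 gave M2 minus M1 differences of 5.14 with IL-1α and 4.78 with vehicle, and probe set 10372069 gave 1.41 and 2.02. For Socs3, probe set 10393449 gave -1.86 with IL-1α and -3.17 with vehicle, and probe set 10383010 gave -0.86 and -0.98. Between the vehicle arrays the gap between probe sets was 2.76 for Socs2, the largest among the 633 genes with at least 2 probe sets at the floor, and 2.19 for Socs3, a gap that 5 of the 633 genes, Socs3 included, reached. The median gap was 0.087. With 1 probe set per gene, limma still called both genes in the same direction. The brightest gave 4.96 ± 0.10 (SE, limma adjusted p = 1.90e-10) for Socs2 and -2.52 ± 0.23 (SE, limma adjusted p = 6.50e-06) for Socs3, and the dimmest gave 1.71 ± 0.13 (SE, limma adjusted p = 9.74e-07) and -0.92 ± 0.10 (SE, limma adjusted p = 1.55e-05).

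The annotation of these probe sets differed as well. Probe sets are numbered roughly along the chromosomes, and for every other probe set of the 10 genes at least 9 of the 10 nearest single-gene probe sets by number belong to genes of the same chromosome. For Socs2 probe set 10394674, 0 of 10 neighbours lay on chromosome 10, where RefSeq places Socs2, and 9 lay on chromosome 12. For Socs3, on the minus strand of chromosome 11, the 9 neighbours of probe set 10393449 with a known strand were all on the minus strand, whereas the 7 of probe set 10383010 were all on the plus strand. Probe set 10383010 is tied to 1 sequence record and no RefSeq transcript, and 10393449 to 3 records with 1 RefSeq transcript. The part of these differences in the values was not tested.

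**Figure D3:**
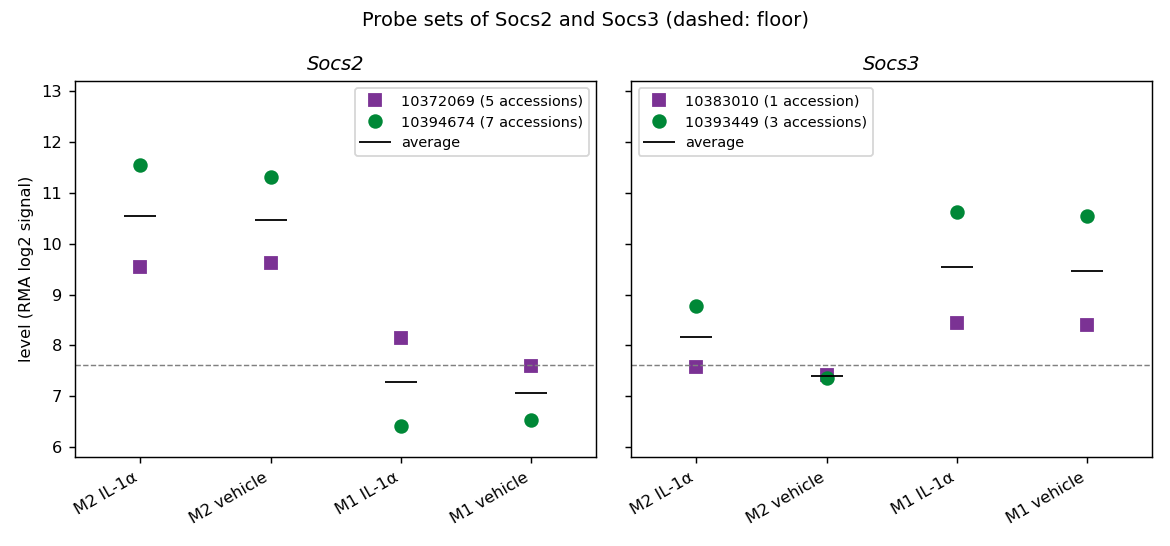
Level (RMA log2 signal) of each probe set of Socs2 and Socs3 on the 4 arrays, with the average as a bar and the floor of 7.62 dashed. In IL-1α-treated M2 the Socs3 probe sets read 8.77 and 7.58, and in vehicle M2 they coincide at 7.37 and 7.42. The order of the Socs2 probe sets flips between phenotypes. Probe set 10394674 lies above 10372069 in M2 (11.55 against 9.54 with IL-1α) and below it in M1 (6.41 against 8.14 with IL-1α).

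Among the averages, the response to IL-1α was small for these genes and largest for Socs3 in M2. Single probe sets of Socs3 in M2 and of Socs2 in M1 differed by more than their averages. In M2, none of the 10 averages reached 2-fold, where 0.35% of 10284 genes did upward and 0% downward. Of the averages, 9 were above 0 and Stat6 was below, in a comparison in which 69.3% of all genes were above 0. The median was 0.11, against 0.05 over all genes.

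Socs3 had an average of 8.18 in IL-1α-treated M2 and 7.39 in vehicle M2, a difference of 0.78 (1.72-fold), rank 54 from the highest of 10284 genes. The average hides a split. Probe set 10393449 read 8.77 in IL-1α-treated M2 and 7.37 in vehicle M2, a difference of 1.40 or 2.64-fold, and 0.186% of 11801 probe sets at the floor differed by more. Probe set 10383010 read 7.58 and 7.42 on the same arrays, both under the floor, a difference of 0.17. That gap of 1.23 was the largest among the 633 genes. By its 10393449 probe set Socs3 was thus past 2-fold, but against an M2 vehicle level under the floor.

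Il13ra1 was next, with 8.08 in IL-1α-treated M2 and 7.64 in vehicle M2, a difference of 0.44, rank 188 from the highest. Cish read 11.28 in IL-1α-treated M2 and 10.93 in vehicle M2, a difference of 0.35, and Jak2 differed by 0.23. The remaining members lay between -0.02 (Stat6) and 0.12 (Pim1), among them Socs1 at 0.10, Il4ra at 0.09, Socs2 at 0.08 and Stat3 at 0.05. The Socs2 probe sets differed in sign, at 0.24 (10394674) and -0.08 (10372069). With IL-1α, Il13ra1 and Socs3 thus stood nearer to their M1 levels and Cish farther from its own, by amounts under 2-fold for the averages.

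In M1, 9 of the 10 genes reached the floor, and none reached 2-fold, where 0% of 10012 genes did in either direction. Their differences ran from -0.12 (Il13ra1) to 0.12 (Jak2), with 6 above 0 and a median of 0.04, against 0.00 over all genes. The standard deviation over all genes of that pair was 0.111, so these values lie near or within 1 standard deviation. Socs1 was at -0.07, Socs3 at 0.07 and Cish at 0.10. Socs2, under the floor on average, was at 0.21. Its probe set 10372069 read 8.14 in IL-1α-treated M1 and 7.60, just under the floor, in vehicle M1. That difference of 0.54 was past the standard deviation above, and 0.0508% of 11801 probe sets at the floor were higher. Probe set 10394674 read 6.41 and 6.53 (-0.12), both under the floor.

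**Figure D4:**
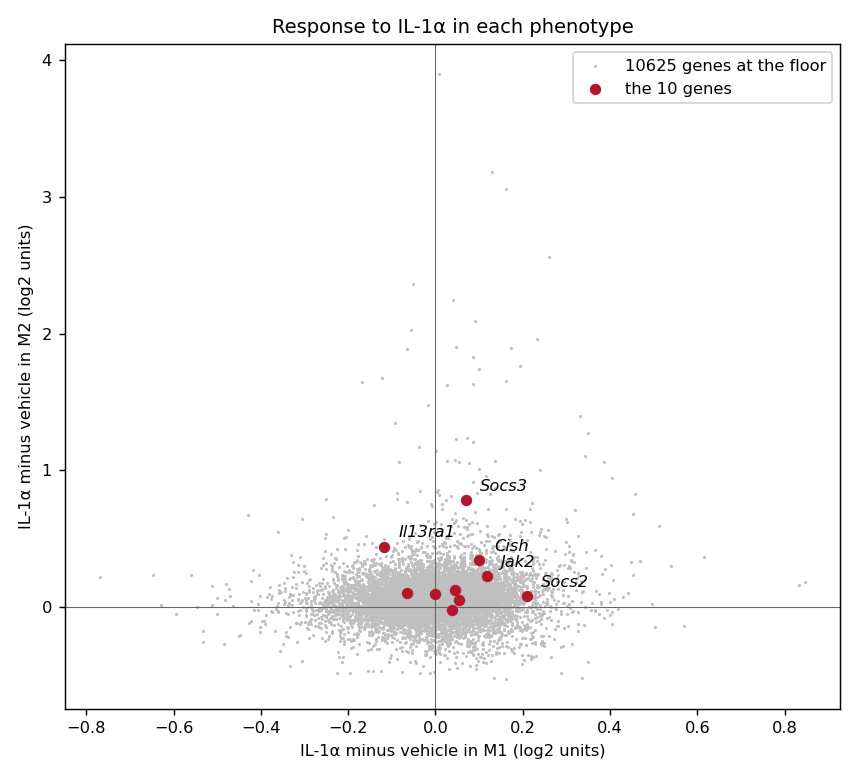
IL-1α minus vehicle (log2 units) in M1 on the x axis and in M2 on the y axis, for 10625 genes at the floor (grey) and the 10 genes (red). Socs3 lies at 0.07 in M1 and 0.78 in M2, Il13ra1 at -0.12 and 0.44, and the others lie within 0.35 of 0 on both axes.

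The response in M2 minus that in M1 was 0.71 for Socs3, 0.56 for Il13ra1 and 0.24 for Cish, and the other 7 lay between -0.13 (Socs2) and 0.17 (Socs1). None reached 2-fold, where 0.32% of 10625 genes did upward and 0% downward. By probe set, Socs3 was at 1.31 (10393449) and 0.11 (10383010). Socs2 was at 0.36 (10394674) and -0.61 (10372069), so its average of -0.13 joins opposite signs. Of the 10625 genes, 0.631% had a higher difference of responses than the Socs3 average and 1.14% than Il13ra1. With 4 arrays this contrast leaves no degree of freedom for a test.

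For the IL-1α term of the additive model, limma called 0 of the 10 genes and 0% of 10625 genes. The smallest limma adjusted p among the 10 was 0.587, for Socs3 (0.43 ± 0.14 SE). At an unadjusted limma p under 0.05 there were 3 members, Socs3 (0.0108), Jak2 (0.0168) and Cish (0.0269), all upward, and 6.08% of all genes.

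The other genes of the pathway place these values. Of the 3 Janus kinases measured, Tyk2 stood at -1.08 between the vehicle arrays (limma adjusted p = 3.81e-08), Jak2 as above, and Jak1 differed by -0.05. Among 5 STATs at the floor, Stat2, a factor of type I interferon signalling, stood at -2.71, the lowest of them. Stat5a was at 0.76 with IL-1α and 0.26 with vehicle. It read 10.55 in IL-1α-treated M2 and 10.11 in vehicle M2, against 9.79 in IL-1α-treated M1 and 9.85 in vehicle M1. Stat5b was at -0.18, and Stat4 was under the floor on all arrays. limma called 1 of the 5 STATs higher (Stat5a) and 3 lower (Stat2, Stat3, Stat6), where it called 33.2% of all genes higher and 29.3% lower.

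All 8 SOCS genes passed limma, 4 in each direction, where 62.5% of all genes passed. Beside Cish and Socs2, Socs6 (1.47) and Socs5 (0.30) were higher in M2 with vehicle, and beside Socs1 and Socs3, Socs7 (-0.78) and Socs4 (-0.28) were lower. The Socs6 value averages 3 probe sets, of which 2 gave 2.21 and 2.01 and the third, under the floor on all arrays, gave 0.19. For the probe set that gave 2.01, 0 of 10 neighbours by number lay on chromosome 18, where RefSeq places Socs6. All 10 lay on chromosome 7. For the probe set that gave 2.21, 4 of 9 neighbours lay on chromosome 18. Of the PIM kinases, Pim3 was called higher in M2 and Pim1 and Pim2 lower, with differences of 0.25, -0.27 and -0.24 with vehicle. Among 13 other inhibitors, limma called 2 higher and 8 lower, 10 of 13 against 62.5% of all genes. Usp18, which blocks the type I interferon receptor, was at -2.82, the phosphatase Ptpn6 (SHP-1) at -1.50, and the ubiquitin ligase Cblb at 1.93.

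Of 35 JAK-coupled receptor chains measured, 24 reached the floor, and limma called 11 higher in M2 and 7 lower, 18 of 24 against 62.5% of all genes. The 3 lowest with vehicle were Il15ra (-4.13), Il12rb1 (-4.06) and Il13ra1, and the 3 highest were Il6st (2.06), Il27ra (1.93) and Il7r (1.78). Il6st encodes gp130, the chain that Socs3 targets, and read 13.26 in IL-1α-treated M2 and 13.27 in vehicle M2, against 11.06 in IL-1α-treated M1 and 11.22 in vehicle M1. The interferon-γ receptor chain Ifngr1 was higher in M2 by 0.58 with vehicle (limma adjusted p = 1.20e-06), and Ifngr2 differed by -0.01. Il12rb1 lay under the floor on both M2 arrays and entered only through M1, where it is high, so its direction is no test and its size is uncertain.

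Of 22 ligands, 6 reached the floor, and limma called all 6 lower in M2: Il12b (-5.61), Il15 (-2.55), Ebi3 (-1.88), Il27 (-1.81), Il10 (-1.56) and Osm (-0.67) with vehicle. Of all genes, 29.3% were called lower. Il12b and Il10 lay under the floor on both M2 arrays. They entered only through M1, where they are high, so their direction is no test and their sizes are uncertain. Transcripts of Il4, Il13, Ifng and Il6 lay under the floor on all 4 arrays.

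**Figure D5:**
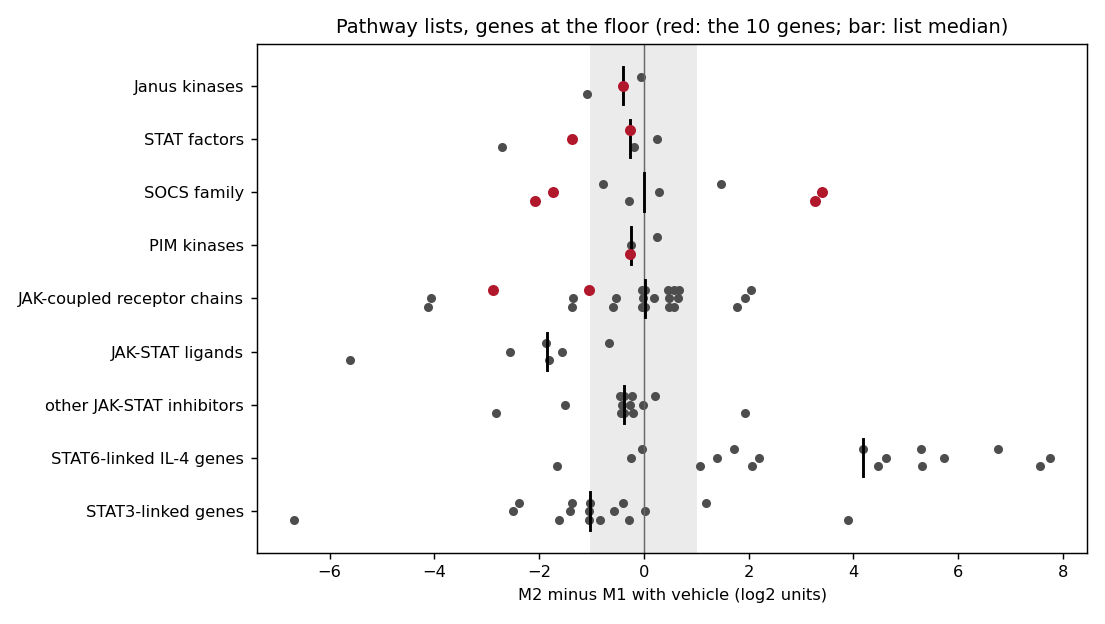
M2 minus M1 between vehicle arrays (log2 units) for genes at the floor in 9 pathway lists, 1 point per gene, with the members in red, list medians as bars and differences under 2-fold shaded. SOCS genes lie on both sides with a median of 0.01, ligands lie below 0 with a median of -1.84, and STAT6-linked genes have a median of 4.18.

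Genes usually induced through STAT6 or STAT3 were set beside the factors. Of 17 IL-4 genes linked to STAT6, 14 reached 2-fold upward between the vehicle arrays, against 7.03% of all genes. The 1 gene downward was Tgm2 (-1.66), against 6.83%. The list median was 4.18, while Stat6 itself differed by -0.27. Most of the 17, among them the 3 highest (Retnla, Chil3, Mgl2), lay under the floor on both M1 arrays. They entered this comparison only through M2, where they are high. The list was made of genes that IL-4 induces, so its upward count describes that choice and is no test. Of 16 genes linked to STAT3, 9 were at least 2-fold lower and 2 higher, with a median of -1.03. The exceptions there were Myc (3.91) and Nfil3 (1.19), both higher in M2. Myc and Ccl24, the gene at the STAT6-list median, lay under the floor on both M1 arrays, so these sizes are uncertain. Saa3, the lowest of the STAT3 list at -6.67, lay under the floor on both M2 arrays and entered only through M1, where it is high. The STAT3 list was also chosen with earlier results of these data known, so its counts are no test. Many of these genes answer to several factors, so a list does not measure 1 STAT. In the IL-1α comparison within M2, 2 of 17 genes of the STAT6 list reached 2-fold upward (Ccl17, Ccl22), and 0 of 15 of the STAT3 list, where Bcl3 stood highest at 0.75. Of all genes, 0.35% did so.

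The genes with the most similar profiles were found by Euclidean distance over the 4 arrays, after centring each of 10625 genes on its own mean. Nearest to Cish were Dusp4 (0.08), Mmp9 (0.17) and Socs2 (0.21), and nearest to Socs2 were Il31ra (0.11), Cnrip1 (0.14) and Ctsk (0.16). Nearest to Socs3 were Stx11 (0.11), Casp4 (0.18) and Rab20 (0.20). Their differences with IL-1α in M2 were 0.78, 0.83 and 0.53, a likeness to Socs3 that follows from the choice by distance. The Socs2 and Socs3 profiles used here are averages of probe sets that differed. Nearest to Socs1 were Rhoh, Rhobtb1 and Tmem171, at distances of 0.03 to 0.05. Il13ra1 had Serpinb9 (0.13), Sema4a (0.15) and Stat2 (0.16) beside it. Stat3 had Spata13, Smad3 and Pxk, and Il4ra had Tnfrsf1b, Mdm2 and Keap1, at distances of 0.014 to 0.035. With 4 arrays, 1 per group, such likeness is a description.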

How the data were processed

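Per the submitters' processing notes, the authors ran RMA in the Affymetrix Expression Console on single-colour mouse gene arrays, and they deposited 1 log2 value per probe set. Versions, settings and the log base are not given in the sources used here. Column medians of 7.32 to 7.38 and a maximum of 14.47 are those of log2 RMA values. Such processing sets arrays to a common distribution and compresses differences of dim probe sets. The number of arrays limits the precision, and groups were taken from the source names.

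GEO's platform annotation gave 1 gene to 21789 of the 35556 rows, several to 1621 and none to 12146. Symbols were updated by Entrez number through RefSeq (GRCm38.p6), which matched 21698. Probe sets were averaged per gene. A gene entered a comparison when a compared array reached the floor (7.62), and was counted when the difference reached 1 (2-fold). limma 3.58.1 in R 4.3.3 (lmFit, eBayes with a trend) fitted phenotype and treatment as additive terms over 10625 genes. The fit was also run on simulated arrays that were additive by construction, which cannot check the p-values of the real arrays. The members and gene lists were chosen with earlier results of these data known. Genes named beside the members came from the 3 highest and 3 lowest of each described list between vehicle arrays or with IL-1α in M2. Not all of these are printed. Also named were the measured JAK, STAT and SOCS genes, shared receptor chains, and the 3 nearest profiles of members spanning at least 1 log2 unit. Il4, Il13, Ifng, Il6, Pim2 and Pim3 were named after their values were seen. A further gene list is not reported here. Alternatives tried were loess centring, a threshold of 1.5-fold, the 75th percentile (9.63) as floor, no floor, further quantile normalisation, the brightest or dimmest probe set per gene, eBayes without a trend and robust eBayes.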

Additional observations from a re-analysis of the deposited data

Results flagged for a closer look

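For the averages of 4 members, the IL-1α array lay above the vehicle array in 1 phenotype and below it in the other, 1 array per group. The difference between the responses was not tested. Il13ra1 differed by 0.44 in M2 and -0.12 in M1, a difference of responses of 0.56. Socs1 differed by 0.10 in M2 and -0.07 in M1, a difference of responses of 0.17. Il4ra differed by 0.09 in M2 and -0.00022 in M1, a difference of responses of 0.092. Its value in M1 was above 0 under loess centring (0.00123) and further quantile normalisation (0.0222), so the opposite directions did not hold there. Stat6 differed by -0.02 in M2 and 0.04 in M1, a difference of responses of -0.061. For Socs1, Il4ra and Stat6 these values lie within 1 standard deviation over genes of the M2 pair (0.177) and of the M1 pair (0.111). Each Socs2 probe set also changed direction between phenotypes, in opposite ways, which the average does not show. Probe set 10394674 differed by 0.24 in M2 and -0.12 in M1, and 10372069 by -0.08 in M2 and 0.54 in M1.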

How the results depend on the processing

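The counts of members at least 2-fold higher or lower between phenotypes, and the counts called by limma, stayed within 1.5 times under every alternative run (5 lower with vehicle became 4 at the lowest, 4 with IL-1α ran from 3 to 5, and 8 lower in limma became 7 at the lowest). The exceptions were counts resting on Socs3. The number of members higher with IL-1α in M2 was 0 and became 1 at the 1.5-fold threshold and 1 with the brightest probe set per gene, and so did the number with a higher difference of responses. The limma IL-1α effect of Socs1 was 0.02 and turned to -0.0020 under loess centring and -0.016 under further quantile normalisation, with limma adjusted p of 0.998 and 0.980, and the cause was not tested. The IL-1α difference of Il4ra in M1, -0.00022, was above 0 under the same alternatives. That of Socs2 changed sign in M2 with the dimmest probe set (-0.08) and in M1 with the brightest (-0.12). With the brightest, the Socs2 difference of responses also changed sign (0.36). No other limma effect of a member changed sign or side of the threshold. Socs3 lay under the floor at the 75th percentile (9.63) on every array and was not tested there. The dimmest probe set per gene and the alternatives for the gene lists were added after seeing the data. No paired analysis was possible because each group has 1 array and the labels give no replicate numbers, and leaving out an array removes its group. Depth is not defined for arrays, and no detection calls were used, so levels near or under the floor limit the sizes given for Cish, Socs2, Socs3 and Il13ra1.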
